A study of Camelina sativa with 12 samples.

Results

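Csa01g002130 is a *Camelina sativa* gene annotated as LOB domain-containing protein 41 (LBD41), the counterpart of AT3G02550 of *Arabidopsis thaliana*. It was chosen by its identifier and annotation, with its levels and its differences between groups in these same libraries already known, and it is 1 of 49932 genes in the expression matrix. Its own levels and fold changes are therefore given as a description, with no test.

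LOB domain proteins are plant transcription factors named after Lateral Organ Boundaries, and several of them act in the formation of lateral roots. In *A. thaliana*, LBD41 belongs to the small set of genes that roots and shoots switch on together when oxygen runs short. That set is driven by group VII ethylene response factors, which are marked for breakdown by plant cysteine oxidases (PCO) while oxygen is present and which persist when it is not; the set also holds the PCO genes themselves and genes of ethanol fermentation such as pyruvate decarboxylase (PDC).

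RNA-Seq libraries were made from roots of 28-day-old plants of the double-haploid line DH55 in 4 groups of 3 replicates. The *rolD::acdS* group carried *acdS*, which encodes the ACC deaminase that degrades the ethylene precursor ACC, behind the root-active *rolD* promoter. The *35S::acdS* group carried it behind the constitutive CaMV *35S* promoter. The *P. migulae* 8R6 group was the untransformed parent grown in soil inoculated with this bacterium, which expresses an *acdS* gene of its own, and the control was the same parent without it. In the study's methods, soil received either bacteria or, as the control, MgSO4 solution, and the transgenic groups are not named separately. All 12 plant samples had received 192 mM NaCl, at an electrical conductivity of 15 dS per m, for 21 days, so that no comparison here is against roots without salt. In its expression results the study mostly writes of the line for each promoter, and for its growth experiment of independent, single-insert lines. The sources used here do not say how many insertion lines or plants went into a replicate. The promoter and the insertion site therefore cannot be told apart.

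The deposited values are CPM, read counts scaled to a common library total, rounded to whole numbers, and they sum to between 887898 and 947036 per library. The number of reads behind them is unknown, which leaves the counting error of each value unknown, and for genes at a few CPM the rounding alone is a visible part of the value. Of 4 chlorophyll-binding protein genes used as markers of green tissue, the summed level was 4 to 7 CPM in *rolD::acdS* roots, 5 to 20 CPM in *35S::acdS* roots, 3 CPM in each of the *P. migulae* 8R6 roots and 4 CPM in each of the control roots. One of these markers, Csa01g026130, was at 0 in all *P. migulae* 8R6 and control libraries. Whole roots were sampled, and fewer cells of a type and less RNA per cell cannot be told apart.

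LBD41 was low and even in *rolD::acdS* roots, high and even in *P. migulae* 8R6 roots, and widely spread in the remaining groups. Csa01g002130 had 14, 8 and 9 CPM in replicates 1, 2 and 3 of *rolD::acdS*. It had 6, 15 and 38 CPM in those of *35S::acdS*. In *P. migulae* 8R6 roots it had 36, 46 and 34 CPM, against 16, 25 and 59 CPM in control roots. The lowest value of the 12 came from *35S::acdS* replicate 1 and the highest from control replicate 3, so that neither extreme lay in the groups with the lowest and highest means.

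**Figure D1:**
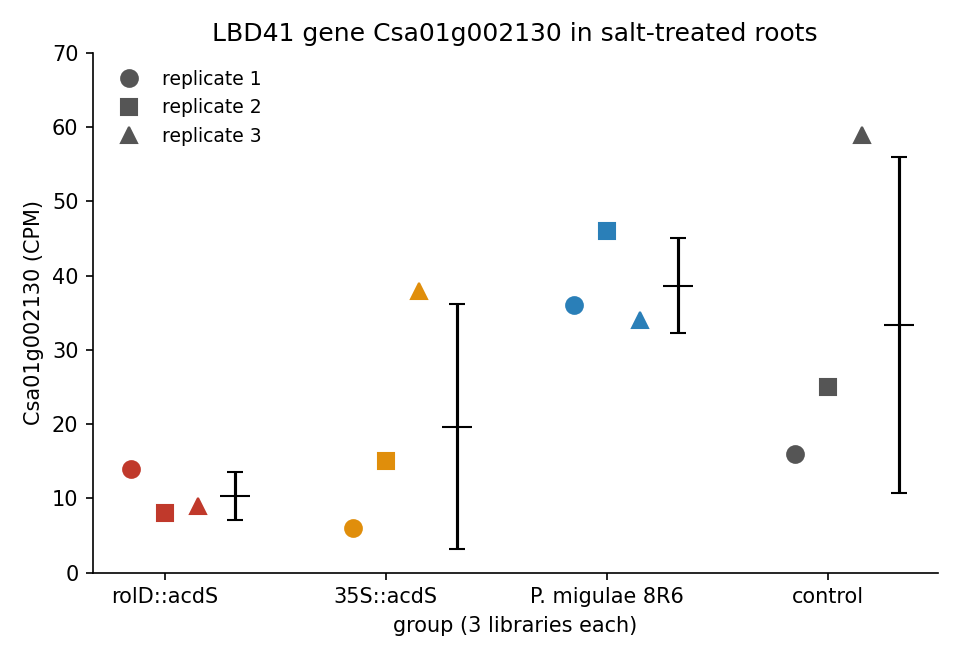
Level of Csa01g002130 (LBD41) in CPM on the vertical axis for each of the 12 root libraries, by group, with the mean and SD of 3 libraries beside the points and the replicate number given by the shape. The *rolD::acdS* libraries lie between 8 and 14 CPM and the *P. migulae* 8R6 libraries between 34 and 46 CPM, while the *35S::acdS* and control libraries are spread over 6 to 38 and 16 to 59 CPM.

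The order of the group means was *P. migulae* 8R6, control, *35S::acdS* and *rolD::acdS*. The means were 10.3 ± 3.21 CPM in *rolD::acdS*, 19.7 ± 16.5 CPM in *35S::acdS*, 38.7 ± 6.43 CPM in *P. migulae* 8R6 and 33.3 ± 22.7 CPM in control roots (SD, n = 3 each). Neighbours in this order overlapped in every case: the *P. migulae* 8R6 libraries lay within the range of the control libraries, the *35S::acdS* range overlapped with that of the control, and the *rolD::acdS* range lay within that of *35S::acdS*. Groups further apart did separate in part. All 3 *rolD::acdS* libraries were below all 3 control libraries, by 2 CPM at the nearest pair, and below all 3 *P. migulae* 8R6 libraries, by 20 CPM at the nearest pair. Of all 48099 tested genes, 3.77% lay lower without overlap in the first of these comparisons and 5.56% in the second.

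LBD41 varied widely between replicates of a group. The highest library was 6.33 times the lowest in *35S::acdS* and 3.69 times the lowest in control roots, but 1.75 times in *rolD::acdS* and 1.35 times in *P. migulae* 8R6. The coefficient of variation was 31.1% in *rolD::acdS*, 83.9% in *35S::acdS*, 16.6% in *P. migulae* 8R6 and 68.0% in control roots. Over all groups, the SD of log2(CPM + 0.5) within groups was 0.829 for Csa01g002130. The median of this SD was 0.165 over the 8024 genes with a mean of 20 to 50 CPM, and the value of LBD41 was above that of 99.0% of them. Genes with a pattern like that of LBD41, described further on, shared this spread: it was 0.704 for Csa15g002200, 0.543 for Csa19g004650 and 1.03 for Csa12g011790, above that of 98.4%, 96.1% and 99.4% of the same 8024 genes. The standard error of 0.59 given with every group difference of LBD41 is the moderated value from limma, in which the variance of a gene is drawn towards that of other genes of its level. It also pools the spread of all groups. The SD of log2(CPM + 0.5) was 0.229 in *P. migulae* 8R6, 0.407 in *rolD::acdS*, 0.941 in control and 1.28 in *35S::acdS* roots. The value of 0.59 is thus too wide for pairs of even groups and too narrow for pairs of spread ones.

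**Figure D2:**
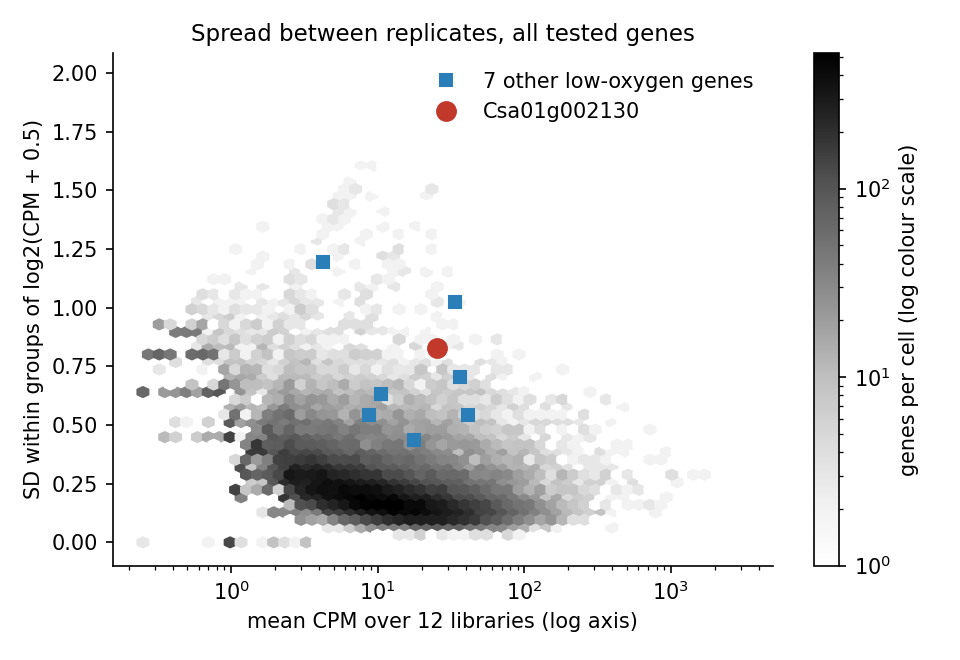
SD of log2(CPM + 0.5) within groups (vertical axis) against mean CPM over the 12 libraries (horizontal log axis) for all 48099 tested genes, with darker cells holding more genes, Csa01g002130 as a red circle and 7 other low-oxygen genes as blue squares. Csa01g002130 sits at 0.829, above the dark band in which most genes of the same mean level lie.

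Between *rolD::acdS* and control roots, the mean of LBD41 was 0.31 of the control mean. On the scale of log2(CPM + 0.5), the difference of group means was -1.47 with a standard error of 0.59. Its size rested on single libraries: it was -0.96 without control replicate 3, the library with the highest level, and -1.89 without control replicate 1. All of these values have the same sign, and *rolD::acdS* remained below control whichever single library was left out.

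The widest gap was that between *rolD::acdS* and *P. migulae* 8R6 roots, where the mean was 0.267 of the *P. migulae* 8R6 mean and the log2 difference was -1.88 with a standard error of 0.59. Because replicates of both groups were close together, leaving out any library moved this difference only between -2.11 and -1.73. Among the 6 pairs of groups, this was the pair in which the value depended least on single libraries.

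The *35S::acdS* group had no settled position. Its mean was 0.59 of the control mean, with a log2 difference of -0.90 (SE 0.59), and this ranged between -1.54 without *35S::acdS* replicate 3 and -0.26 without *35S::acdS* replicate 1. Against *P. migulae* 8R6 the ratio of means was 0.509 and the log2 difference was -1.31 (SE 0.59), between -1.95 and -0.67 when the same libraries were left out. The *rolD::acdS* mean was 0.525 of the *35S::acdS* mean with a log2 difference of -0.58 (SE 0.59), and without *35S::acdS* replicate 3 this difference was 0.07, with the sign turned. The direction between the promoters therefore depended on 1 library.

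*P. migulae* 8R6 roots did not separate from control roots. The ratio of means was 1.16 and the log2 difference was 0.41 (SE 0.59), which is smaller than its standard error. It was 0.92 without control replicate 3 and -0.0045 without control replicate 1. The difference between these groups that is plain in the values is one of spread, with 34 to 46 CPM in *P. migulae* 8R6 libraries and 16 to 59 CPM in control libraries, and it was not tested.

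**Figure D3:**
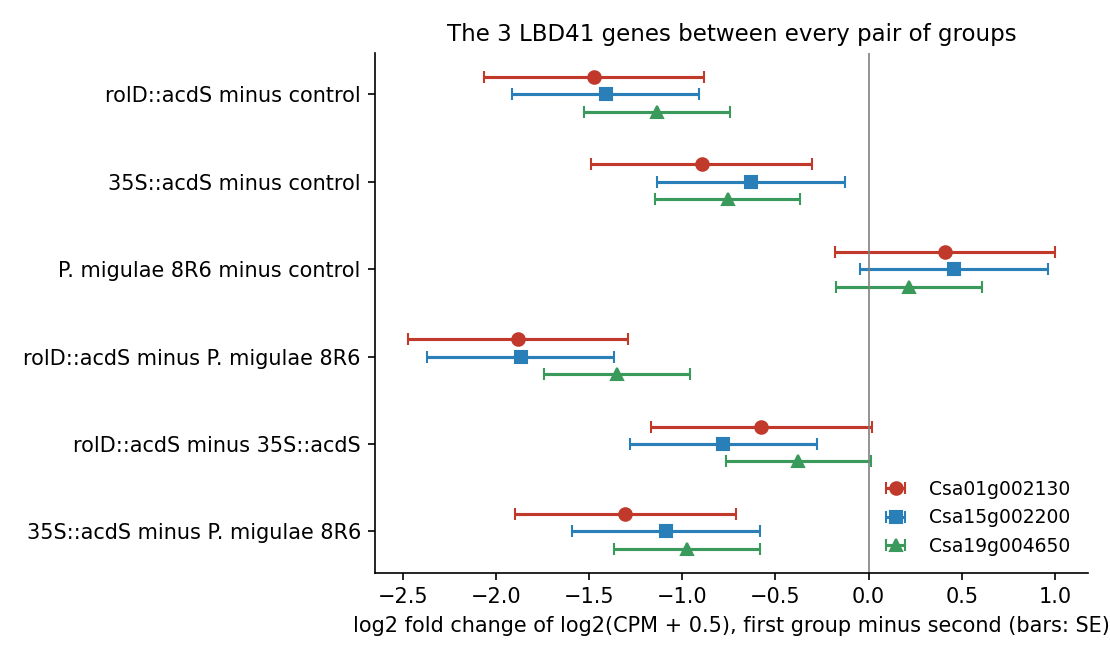
Log2 fold changes of Csa01g002130 (red circles), Csa15g002200 (blue squares) and Csa19g004650 (green triangles) for the 6 pairs of groups, as differences of log2(CPM + 0.5) between the first and the second group named, with standard errors. All 3 genes have their lowest value between *rolD::acdS* and *P. migulae* 8R6 (-1.88, -1.87 and -1.35), and their only positive value, with bars that cross 0, between *P. migulae* 8R6 and control.

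*C. sativa* is a hexaploid, and 2 further genes, Csa15g002200 and Csa19g004650, carry the same LBD41 annotation and the same *A. thaliana* counterpart. Csa15g002200 had 22, 12 and 12 CPM in *rolD::acdS*, 14, 22 and 54 CPM in *35S::acdS*, 53, 56 and 56 CPM with *P. migulae* 8R6 and 24, 33 and 80 CPM in control roots. Csa19g004650 had 32, 18 and 19 CPM in *rolD::acdS*, 17, 28 and 51 CPM in *35S::acdS*, 54, 65 and 54 CPM in *P. migulae* 8R6 and 35, 44 and 78 CPM in control roots. Both repeated the picture of Csa01g002130, with *rolD::acdS* below control and *P. migulae* 8R6 in all libraries and with *35S::acdS* and control spread widely. Reads shared by near-identical copies may have been divided among the 3 genes or left out by the counting, so the homeologs are not independent of Csa01g002130 and their values are uncertain to that extent.

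The homeologs were tested in 1 fit across all 48099 genes that reached 1 CPM in 3 or more libraries (limma, with Benjamini-Hochberg adjustment over all of them). A gene was called where its adjusted p did not exceed 0.05 and its log2 fold change went beyond 0.8 in either direction. In *rolD::acdS* against control roots, where 0.00416% of all tested genes were called, the log2 fold change in limma was -1.41 (SE 0.50, adjusted p = 0.710) for Csa15g002200 and -1.13 (SE 0.39, adjusted p = 0.697) for Csa19g004650. Against *P. migulae* 8R6, where 0.00832% of genes were called, the limma values were -1.87 (adjusted p = 0.188) and -1.35 (adjusted p = 0.210). Neither homeolog was called in these or in the remaining comparisons. Their adjusted p in limma ran up to 0.938, reached by Csa19g004650 between *P. migulae* 8R6 and control roots.

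Csa01g002130 made up between 16.2% and 27.5% of the summed CPM of the 3 LBD41 genes, and this share was higher in libraries where their sum was higher. It was 20.6%, 21.1% and 22.5% in *rolD::acdS*, 16.2%, 23.1% and 26.6% in *35S::acdS*, 25.2%, 27.5% and 23.6% with *P. migulae* 8R6 and 21.3%, 24.5% and 27.2% in control roots. The mean share was 21.4% ± 1.00 in *rolD::acdS* and 24.3% ± 2.93 in control roots (SD, n = 3 each), a difference of -2.96 percentage points. For *35S::acdS* and *P. migulae* 8R6 the differences from control were -2.39 and 1.10 percentage points. The libraries overlapped in each of these comparisons, and since the share contains the level of Csa01g002130 itself, no test is given. Over the 12 libraries, in which the summed level ran over 37 to 217 CPM, the share and the log2 of the sum had a correlation of 0.849, a description in which both measures contain the level of Csa01g002130 itself.

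Other genes of the low-oxygen response with an annotation in the study's tables were 2 PCO1 genes, 2 PDC genes and the gene of the aquaporin NIP2;1, a lactate channel of *A. thaliana* roots. The study listed these genes, like the LBD41 genes, for their difference between *rolD::acdS* and control roots in these libraries, so their direction in that comparison is not independent evidence. The PCO1 gene Csa20g021600 had 5, 3 and 4 CPM in *rolD::acdS*, 4, 5 and 12 CPM in *35S::acdS*, 13, 15 and 13 CPM in *P. migulae* 8R6 and 6, 9 and 16 CPM in control roots. As for LBD41, its *rolD::acdS* libraries were low and even, its *P. migulae* 8R6 libraries high and even, and the others spread. The second PCO1 gene, Csa08g007200, had 7, 4 and 3 CPM in *rolD::acdS*, 4, 8 and 14 CPM in *35S::acdS*, 16, 18 and 13 CPM in *P. migulae* 8R6 and 7, 12 and 20 CPM in control roots.

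Pyruvate decarboxylase commits pyruvate to ethanol fermentation. The PDC1 gene Csa12g011790 had 9, 9 and 11 CPM in *rolD::acdS*, 7, 19 and 72 CPM in *35S::acdS*, 44, 77 and 48 CPM in *P. migulae* 8R6 and 15, 22 and 70 CPM in control roots. Its spread within *35S::acdS*, 10.3 times between the highest and lowest library, exceeded that of LBD41. The PDC2 gene Csa11g088050 differed less between libraries, with 9, 10 and 10 CPM in *rolD::acdS*, 13, 16 and 21 CPM in *35S::acdS*, 16, 34 and 21 CPM in *P. migulae* 8R6 and 13, 19 and 30 CPM in control roots. The NIP2;1 gene Csa06g036830 was near the lower limit of the rounded values, with 1, 0 and 0 CPM in *rolD::acdS*, 1, 2 and 8 CPM in *35S::acdS*, 11, 10 and 5 CPM in *P. migulae* 8R6 and 1, 1 and 11 CPM in control roots. In *35S::acdS* and control roots, all of these genes and both homeologs had their highest level in replicate 3.

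**Figure D4:**
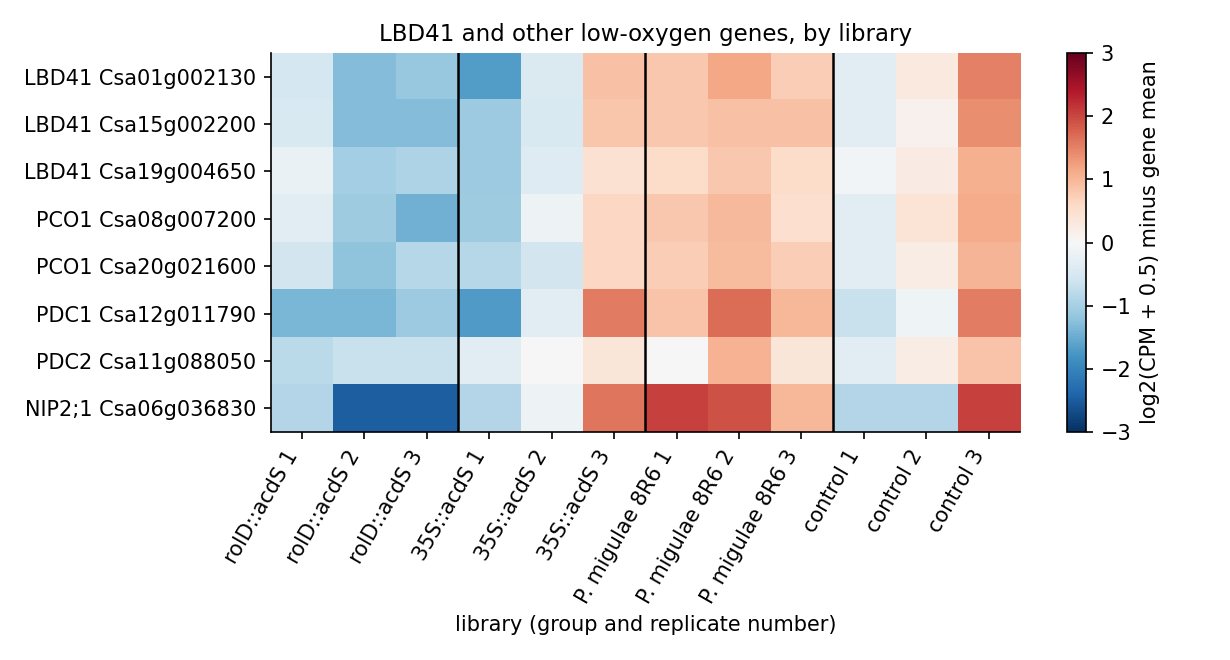
Heat map of Csa01g002130, its 2 homeologs and 5 other low-oxygen genes (rows) in the 12 libraries (columns, by group and replicate number), coloured by log2(CPM + 0.5) minus the mean of each gene. *rolD::acdS* columns are blue or near white and *P. migulae* 8R6 columns red or near white, whereas in *35S::acdS* and control replicate 3 is red and replicate 1 blue or near white for all 8 genes.

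The 7 genes, meaning the homeologs and the 5 others, were all lower in *rolD::acdS* than in control by log2 fold change, with a median of -1.34 against a median of 0 over all tested genes. None of the 7 was called by limma in this comparison, with adjusted p between 0.694 and 0.729, and 6 of the 7 had an unadjusted p under 0.05 in that direction, as had 3.75% of all tested genes. In 5 of the 7 all *rolD::acdS* libraries were below all control libraries, as in 3.77% of all tested genes. For LBD41 itself the corresponding difference was -1.47. The study had listed the 7 genes for their difference between these groups in these same libraries. The counts of 6 and 5 of the 7 therefore cannot be read against the shares of all tested genes. Low-oxygen genes without an annotation in the study's tables could not enter the list.

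In *rolD::acdS* against *P. migulae* 8R6 roots, the median of the 7 genes was -1.71, against -1.88 for LBD41 and 0 over all tested genes. All 7 had every *rolD::acdS* library below every *P. migulae* 8R6 library, as had 5.56% of all tested genes, and all 7 had an unadjusted p under 0.05 in limma, as had 6.79%. The adjusted p in limma was between 0.151 and 0.220, so that 0 of the 7 were called. This comparison shares its *rolD::acdS* libraries with the one against control, for which the study had listed the genes. The 2 sets of values are therefore not independent.

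The remaining comparisons were weaker for LBD41 and for the list alike. Between *35S::acdS* and *P. migulae* 8R6 the median of the 7 was -1.06, beside -1.31 for LBD41; 2 of the 7 had an unadjusted p under 0.05 in limma, as had 6.52% of all tested genes in the lower direction, 2 had libraries that did not overlap, as had 5.05%, and 0 were called, as were 0% of all genes. Between *rolD::acdS* and *35S::acdS* the median was -0.74, beside -0.58 for LBD41. Here 2 of the 7 were under an unadjusted p of 0.05 in limma (3.51% of all tested genes), 1 was without overlap (3.58%) and 0 were called (0.00416%). This comparison uses the same *rolD::acdS* libraries for which the study had listed the genes. Its counts therefore cannot be read against the shares of all tested genes. Between *35S::acdS* and control the median was -0.57, beside -0.90 for LBD41, and limma called 0 of the 7 (0% of all tested genes). None of the 7 was lower at an unadjusted p under 0.05 (4.12% of all tested genes) or without overlap (4.42%). Between *P. migulae* 8R6 and control the median was 0.46, beside 0.41 for LBD41, and limma again called 0 of the 7 (0%). None was higher at an unadjusted p under 0.05 (2.57%) or without overlap (1.95%). The comparisons with control share the control libraries used in that listing, so their counts are not independent of it.

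Within control and *35S::acdS*, LBD41 and these genes had the same highest and lowest library, and within the other groups they did so in part. Here and below, a library tied for highest or lowest was counted as the highest or lowest. Control replicate 3 was the highest and control replicate 1 the lowest for LBD41, and the same held for 7 of the 7 other genes. Of these, Csa06g036830 had 1 CPM in both replicates 1 and 2. In *35S::acdS*, replicate 3 was again the highest and replicate 1 the lowest for LBD41 and for 7 of the 7. In *P. migulae* 8R6 the highest library of LBD41, replicate 2, was also the highest for 6 of the 7, and the lowest, replicate 3, for 4 of the 7. Among these, Csa15g002200 tied for highest, and Csa19g004650 and Csa20g021600 tied for lowest. In *rolD::acdS*, replicate 1 was highest for 5 of the 7 and replicate 2 lowest for 5 of the 7, ties included. What set these libraries apart within their groups is not recorded in the labels used here. The summed level of the green-tissue markers and the sum of all CPM in a library had correlations of -0.18 and 0.12 with LBD41 over the 12 libraries. Within *35S::acdS*, the marker sum was 5, 10 and 20 CPM in replicates 1, 2 and 3, beside 6, 15 and 38 CPM of LBD41, so that both had the same order there. In control roots the marker sum was 4 CPM in every library while LBD41 spread over 16 to 59 CPM, and in *rolD::acdS* it was 4, 6 and 7 CPM beside 14, 8 and 9 CPM of LBD41. The part of green tissue in the spread within *35S::acdS* was not tested, and the markers were not chosen independently of these libraries.

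The genes whose pattern was most like that of LBD41 were ranked by Pearson's r of log2(CPM + 0.5) over the 12 libraries, among 32861 other genes with a mean of at least 5 CPM. These correlations are descriptions, the libraries being the same for every gene and falling into 4 groups. The homeolog Csa19g004650 was first (r = 0.989), Csa15g002200 ranked at 4 (0.980), and the PCO1 genes Csa20g021600 (0.972) and Csa08g007200 (0.971) at 7 and 8. Both homeologs and both PCO1 genes were thus among the 10 genes nearest to LBD41. The other 6 of these 10 genes, with r between 0.969 and 0.989, were Csa03g037640, Csa17g055710, Csa14g043350, Csa10g047880, Csa15g002210 and Csa07g036660, for which the tables used here give no annotation. Csa15g002210 has the identifier that follows that of the homeolog Csa15g002200. Values of r above 0.9 were found for 61 genes and values below -0.9 for 6 genes, and the median over all ranked genes was 0.022.

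Csa12g011790 (PDC1) ranked at 20 with r = 0.957 and Csa11g088050 (PDC2) at 141 with r = 0.851, while Csa06g036830 (NIP2;1), below the minimum mean level for the ranking, had r = 0.889. Leaving out *35S::acdS* replicate 1 and control replicate 3, the libraries farthest from the median of LBD41, r was between 0.877 and 0.991 for the 7 low-oxygen genes, against 0.851 to 0.989 with all libraries. The range of likeness to LBD41 was thus nearly the same without these extreme libraries.

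**Figure D5:**
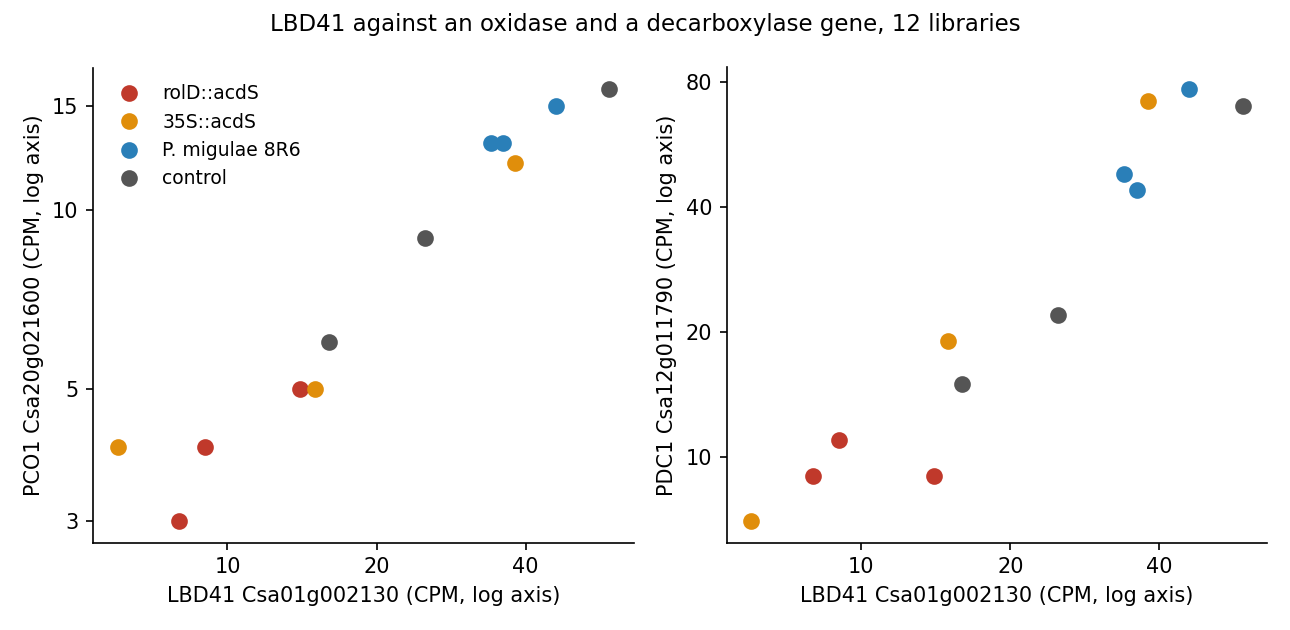
Csa01g002130 in CPM (horizontal log axes) against the PCO1 gene Csa20g021600 (left, r = 0.972) and the PDC1 gene Csa12g011790 (right, r = 0.957) in CPM (vertical log axes), 1 point for each of the 12 libraries, coloured by group. The *rolD::acdS* points lie towards the low end and the *P. migulae* 8R6 points towards the high end. The *35S::acdS* and control points are strung out along the same line and hold the lowest and the highest value of LBD41.

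After the group means were subtracted, so that only the spread between replicates remained, the correlations with LBD41 stayed high. The 5 highest were those of Csa14g043340 (0.993), Csa17g055710 (0.991), Csa15g003030 (0.990), Csa03g037640 (0.987) and the homeolog Csa19g004650 (0.982). For the 7 low-oxygen genes they ran between 0.730 for Csa11g088050 and 0.982. In all, 53 genes had such a correlation above 0.9 and 14 below -0.9, and 37 genes exceeded 0.9 both before and after the subtraction. Most of the variation in these deviations came from the *35S::acdS* and control libraries: over the 6 *rolD::acdS* and *P. migulae* 8R6 libraries alone, the deviations of Csa12g011790 and Csa11g088050 had correlations of 0.34 and 0.29 with those of LBD41, whereas Csa19g004650, Csa20g021600 and Csa15g002200 had 0.975, 0.921 and 0.866.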

How the data were processed

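The authors made libraries from 12 root samples with TruSeq stranded mRNA and total RNA kits, with poly(A) RNA given as the molecule in the labels, and their processing notes name Trimmomatic, STAR, DESeq and edgeR with no versions. The values deposited by the authors are CPM rounded to whole numbers (100% of values are whole), treated here as a score and not as counts, since the read depth is not given in the sources used here. Columns with the authors' own fold changes and p-values were not used. Gene annotation came from the study's tables; of the identifiers, 0 matched the RefSeq gene table, so no coordinates or sequences are given and genes could not be chosen by RefSeq description. The gene and all lists were chosen with earlier results of these data known.

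Groups followed the sample labels. A pseudocount of 0.5 was added before taking log2, and genes with at least 1 CPM in at least 3 libraries (48099 of 49932) were fitted together with 1 mean per group (limma 3.58.1 in R 4.3.3, trended prior variance, 8 residual degrees of freedom). Levels of Csa01g002130 were not tested. A permutation test planned for the share was run, but its result is not given because the share contains that level. Same-numbered replicates deviated together (every correlation over 0.1) only between *rolD::acdS* and *35S::acdS*. P-values rest on 1 spread per gene, pooled over all groups and drawn towards that of other genes, not only on the groups compared. Each group had 3 samples, described as biological replicates. Named were the LBD41 gene, its homeologs, annotated low-oxygen genes, and the 10 and 5 genes most correlated with it over libraries and over deviations from group means. The fit was also run on simulated data, with less noise than the spread within groups of Csa01g002130 and the low-oxygen genes. That run therefore says nothing about the power of the fit for these genes. Alternatives were other pseudocounts, filters and scalings, a replicate block, a fit of only the groups compared, an untrended prior, values shifted within their rounding, and each library left out. Python 3.11.15, numpy 2.4.6, pandas 2.3.3, scipy 1.17.1 and matplotlib 3.10.9 were used.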

Additional observations from a re-analysis of the deposited data

How the results depend on the processing

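Of 545 values computed under alternative settings, 132 were counts of called low-oxygen genes, all 0 where almost no gene was called in any comparison, so that they say little about stability. Among the values of the untested Csa01g002130, 2 of 138 changed sign. The log2 difference was -0.0045 for *P. migulae* 8R6 against control without control replicate 1. For *rolD::acdS* against *35S::acdS* without *35S::acdS* replicate 3 it was 0.07. Many of the 138 could not move, because a difference of group means does not depend on the filter, the prior or a balanced replicate block. Nor does it change when other groups are dropped or lose a library. The same holds for the fold changes of the homeologs, so the small number of sign changes says little about stability. A further 4 differences, none of them called, changed sign when 1 library was left out. Csa19g004650 ran between -0.029 and 0.54 for *P. migulae* 8R6 against control (lowest without control replicate 1, highest without control replicate 3) and between -0.75 and 0.025 for *rolD::acdS* against *35S::acdS* (without *35S::acdS* replicates 1 and 3). The share of Csa01g002130 ran between -4.70 and 0.481 percentage points for *35S::acdS* against control (without *35S::acdS* replicates 3 and 1) and between -0.406 and 2.52 for *P. migulae* 8R6 against control (without control replicates 1 and 3).

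Apart from left-out libraries, the log2 fold change of Csa01g002130 between *rolD::acdS* and control lay between -1.57 and -1.38 over 11 alternatives. The ends were set by shifting values within their rounding. Only the pseudocounts, the scalings and the rounding could move it, and under the other alternatives it stayed at -1.47 by construction. The counts of 0 include a setting with no minimum on the fold change, chosen after seeing the data. Deviations of same-numbered libraries had correlations between -0.17 and 0.58 (median 0.162, 18 pairs), against a median of -0.061 over 36 pairs with different numbers, and 8 of 12 libraries correlated best with their own number. All 3 pairs were over 0.1 only between *rolD::acdS* and *35S::acdS* (0.122 to 0.188), where the replicate block gave adjusted p = 0.644 in limma for Csa15g002200 (0.513 to 0.986 over its alternatives) and 0.80 for Csa19g004650 (0.604 to 1). With the replicate block, the adjusted p of Csa15g002200 between *rolD::acdS* and control was 0.539 in limma (0.290 to 1 over all its alternatives), and the block changed no call. The 10 genes most like Csa01g002130 shared 7 to 9 members with those found by Spearman's rho or with a lower minimum mean. The unknown read depth limits what can be said of genes at a few CPM.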
